A study of Mus musculus with 7 samples.

Results

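Olfactory ensheathing cells wrap the axons of olfactory sensory neurons, and Schwann cells and their precursors do the same for the other peripheral nerves of the nose. The glia genes described here are *Sox10*, *S100b*, *Fabp7*, *Frzb*, *Npy*, *Ngfr*, *Gfap* and *Apoe*, genes that these cells are known to express. They were chosen by name, and a probe was taken for a gene when the transcript it targets belongs to that gene in RefSeq. All 8 genes were found, with 10 probes among the 39429 probes of the array, and all 8 passed the filter on dim probes, which left 20661 genes to be tested.

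RNA of the nasal cavity, dissected with septum and turbinate, came from female BALB/c mice that entered the study at 6 weeks of age and were killed after the exposure. DEP (diesel exhaust particle) mice inhaled 100 μg/m3 DEP in saline from a nebulizer for 1 hour a day on 5 days a week, and control mice inhaled saline in the same way. Exposure lasted 4 weeks (4 arrays) or 8 weeks (3 arrays), and each array carried DEP RNA labelled with Cy5 and control RNA labelled with Cy3. The dyes were never swapped, so a dye effect of a single probe cannot be told apart from a DEP effect at either time, while one that is alike on all arrays cancels in the difference between the times. All 4-week arrays came from 1 slide and all 8-week arrays from another, which means that the slide cannot be told apart from the time of exposure, and nor can the age of the mice, control mice included. How many mice gave RNA to an array, and whether control RNA was pooled, are not given in the sources used here, so p-values measure the spread between these arrays.

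Sox10 is the transcription factor that neural crest cells need to become glia. S100b is a calcium-binding protein and Fabp7 a fatty acid carrier of glial cytoplasm, and Gfap is the intermediate filament of astrocytes that ensheathing and non-myelinating Schwann cells also make. Frzb is a secreted Wnt antagonist, Npy a secreted neuropeptide, Apoe a lipid carrier, and Ngfr (p75NTR) the low-affinity receptor for neurotrophins. None of these genes is private to glia. Melanocytes and gland cells also use Sox10, chondrocytes S100b and Frzb, macrophages Apoe, sympathetic neurons Npy and sensory neurons Ngfr, so lists of markers of these cells were measured beside them. In a whole tissue, fewer cells of a type and less RNA per cell cannot be told apart.

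For *Npy*, *Ngfr* and *Fabp7*, chosen after their values were seen because their calls in control tissue passed in every alternative, the 250 bases before the transcript start are shown, 5′ to 3′ on the gene's strand, from the RefSeq table of GRCm38.p6. Capitals mark the core word of the aryl hydrocarbon receptor element (GCGTG or CACGC, the receptor that senses aromatic compounds of exhaust) and the GC box (GGGCGG or CCGCCC), searched on both strands.
Npy, chr6:49822460-49822709, plus strand: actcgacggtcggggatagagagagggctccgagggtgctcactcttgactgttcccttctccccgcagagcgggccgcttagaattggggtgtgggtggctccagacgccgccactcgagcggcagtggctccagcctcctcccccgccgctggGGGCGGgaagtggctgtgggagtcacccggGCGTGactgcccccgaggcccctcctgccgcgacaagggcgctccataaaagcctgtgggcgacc
Ngfr, chr11:95587699-95587948, minus strand: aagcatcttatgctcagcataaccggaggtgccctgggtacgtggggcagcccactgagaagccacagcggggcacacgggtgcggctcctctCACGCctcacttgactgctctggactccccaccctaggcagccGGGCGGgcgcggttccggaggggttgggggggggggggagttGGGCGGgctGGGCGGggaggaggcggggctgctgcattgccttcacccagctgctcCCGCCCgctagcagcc
Fabp7, chr10:57784673-57784922, plus strand: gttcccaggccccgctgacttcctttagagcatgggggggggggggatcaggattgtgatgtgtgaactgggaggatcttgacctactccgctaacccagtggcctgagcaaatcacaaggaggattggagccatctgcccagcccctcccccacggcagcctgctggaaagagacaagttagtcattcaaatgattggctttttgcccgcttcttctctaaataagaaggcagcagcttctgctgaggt
A receptor word stood 65 bases before the start of *Npy* and 157 bases before that of *Ngfr*, and *Fabp7* had none. Among the 7 glia genes with a window in the table, *Npy* and *Ngfr* were the 2 with that word, which 28.2% of all 32851 windows held. *Ngfr* had 4 GC box words, and *Npy* and *Frzb* had 1 each. These were 3 of the 7 genes, and 32.7% of all windows held at least 1. The words ACAAAG and ACAATG, which SOX factors can bind, were searched on both strands as well. They were found for *Apoe* only among the 7 genes, against 25.2% of all windows. These matches describe letters of the reference genome and not binding.

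Per array, the DEP RNA gave 18599 to 25063 probes well above background and the control RNA 16983 to 26924. Saturation affected 0 spots. The numbers of arrays limit the precision of every value. All 11 markers of mature olfactory sensory neurons were well above background on every array, so the tissue held olfactory epithelium at both times.

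At 4 weeks, *Sox10* and *Ngfr* were higher and *Fabp7* was lower in DEP than in control tissue. At 8 weeks, *Npy* was lower and *Ngfr* higher. A gene was called when its brightest tested probe had an adjusted p (limma, Benjamini-Hochberg over all probes tested) of at most 0.05. The 3 of 8 genes called at 4 weeks stand beside 38.1% of all genes tested, and the 2 of 8 called at 8 weeks beside 37.3%, so neither share was above that of the genes at large. By direction, 21.6% of all genes were higher and 16.5% lower at 4 weeks, and 20.4% were higher and 17% lower at 8 weeks. The difference between the times passed for 3 of 8 genes, *Fabp7* upward and *Sox10* and *Npy* downward, beside 30.9% of all genes (14.9% upward and 16.1% downward). Arrays of the 2 times did not overlap for *Fabp7*, *Npy* and *Ngfr*, beside 42.3% of all genes, and *Npy* was among the 21.1% whose 8-week arrays all lay lower. With median centring in place of loess, the share of higher genes among all calls moved from 56.7% to 42.5% at 4 weeks and from 54.6% to 27% at 8 weeks, where it also moved the median log2 ratio of all genes from 0.01 to -0.11. With the processed signals of the scanner software it moved to 67.8% at 4 weeks. Of the calls of the difference, 48.1% were upward, 28.9% with median centring and 35.6% with the processed signals. With the main processing (offset 50), no glia gene passed the study's thresholds, a p of at most 0.01 with at least a 2-fold change. Of all genes, 1.3% passed them at 4 weeks and 2.94% at 8 weeks. Among the alternatives the 8-week log2 ratio reached -1.57 for *Npy* and -2.88 for *Gfap*, so whether a glia gene reached 2-fold depended on the processing.

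**Figure D1:**
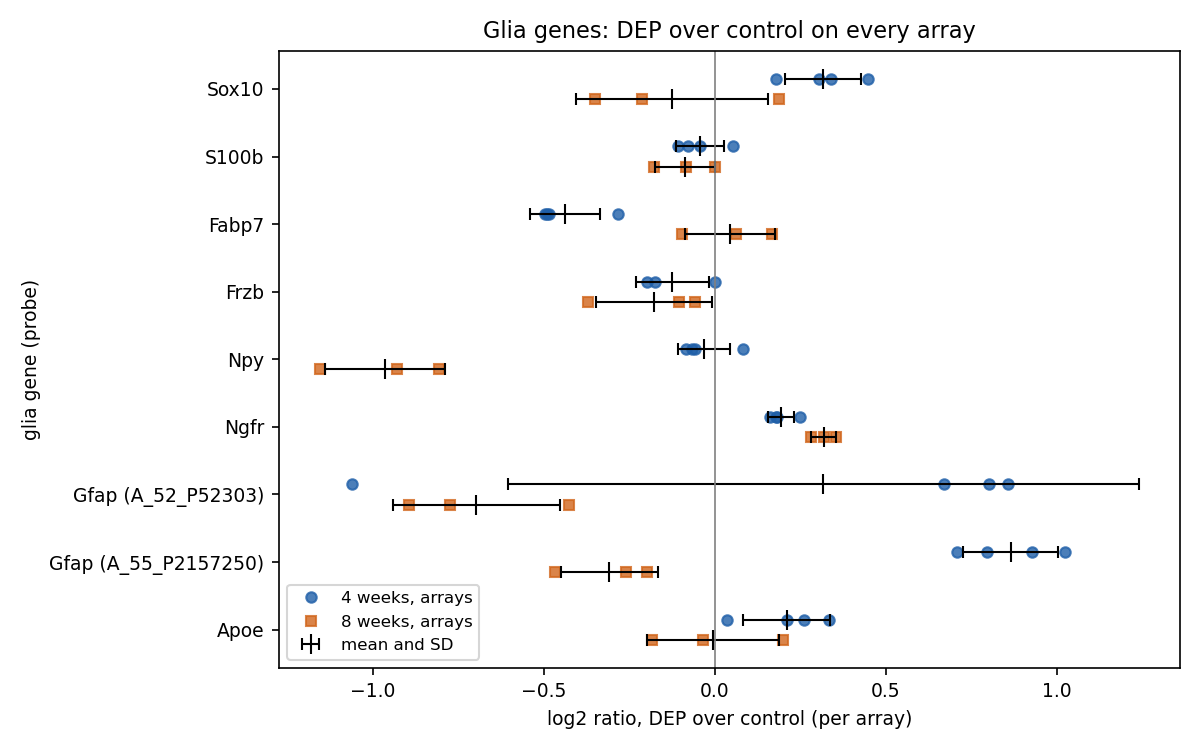
Log2 ratio of DEP over control (x axis) for each tested glia gene probe (y axis), with 1 point per array at 4 weeks (circles, 4 arrays) and 8 weeks (squares, 3 arrays) and the mean with its SD in black. *Npy* lies between -1.16 and -0.81 at 8 weeks, and the first *Gfap* probe has 1 array of 4 weeks at -1.06 while the other 3 lie above 0.66.

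*Sox10* gave log2 ratios of 0.45, 0.34, 0.30 and 0.18 on the 4-week arrays (replicates 1 to 4) and of 0.19, -0.21 and -0.35 on the 8-week arrays (replicates 1 to 3). All 4 arrays of 4 weeks were above 0, and the 8-week arrays fell on both sides of it, with replicate 1 inside the 4-week range. The mean was 0.32 ± 0.11 (SD, n = 4) at 4 weeks, a 1.25-fold higher level (adjusted p = 0.0255), and -0.13 ± 0.28 (SD, n = 3) at 8 weeks (adjusted p = 0.381), where median centring gave -0.45 (adjusted p = 0.0175). The difference between the times was -0.44 (standard error 0.13, adjusted p = 0.0419). Both calls were lost when single arrays were left out. At 4 weeks the adjusted p became 0.081 when replicate 1 was left out, 0.0747 when it was replicate 2 and 0.0608 when it was replicate 3, and median centring gave 0.154. The adjusted p of the difference lay between 0.0502 and 0.14 without any 1 array other than replicate 1 of 8 weeks, and was 0.00719 without that array.

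The level of *Sox10* RNA was highest in DEP tissue of 4 weeks, at a normalized log2 level of 10.21 to 10.55. Control tissue of 4 weeks followed at 9.98 to 10.11 without overlap. Control tissue of 8 weeks (9.82 to 10.13) and DEP tissue of 8 weeks (9.47 to 10.09) overlapped with their neighbours in this order. Markers of the other cells known to express *Sox10* did not all move with it. Of 9 gland markers at 4 weeks, 4 were higher and 1 lower (median log2 ratio 0.25, values from -0.54 to 2.98), among them the lactoperoxidase gene *Lpo* at 2.98 (adjusted p = 1.65e-07). Their summed level was 158234 to 179230 in DEP and 125864 to 134650 in control tissue. Of 8 melanocyte markers 4 were tested, where *Dct*, an enzyme of melanin synthesis, was lower at -0.92 (adjusted p = 2.21e-05) and *Tyr*, the tyrosinase gene, higher at 0.30 (adjusted p = 0.0331, and 0.26, adjusted p = 0.0797, with median centring). The summed melanocyte level was 850 to 1182 in DEP and 1298 to 1559 in control tissue. At 8 weeks 5 gland markers were higher and 2 lower (3 and 3 with median centring). Their median was 0.23, with values from -1.54 to 0.73, and the summed level was 67954 to 83593 in DEP and 95925 to 98243 in control tissue. *Tyr* was at 0.55 at 8 weeks (adjusted p = 0.00479, and 0.33, adjusted p = 0.0514, with median centring), and the summed melanocyte level was 871 to 927 in DEP and 757 to 1052 in control tissue. The part of either cell type in the *Sox10* values was not tested.

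*S100b* did not pass the test at either time. Its log2 ratios were 0.05, -0.11, -0.08 and -0.04 at 4 weeks and -0.18, -0.09 and -0.00 at 8 weeks, and the 2 times overlapped. The means were -0.04 ± 0.07 (SD, n = 4; 95% interval -0.16 to 0.07; adjusted p = 0.514) and -0.09 ± 0.09 (SD, n = 3; 95% interval -0.22 to 0.05; adjusted p = 0.275). With median centring *S100b* was lower at 4 weeks (-0.16, adjusted p = 0.0458) and at 8 weeks (-0.42, adjusted p = 0.000997), and the difference was -0.26 (adjusted p = 0.0385), beside the shift of all genes given above. Of the 7 cartilage markers tested, 2 were higher and 2 lower at 4 weeks, and 1 was higher and none lower at 8 weeks. *Col9a2*, a cartilage collagen, was at 0.27 (adjusted p = 0.0153) and *Col11a2*, another, at -0.25 (adjusted p = 0.0228) at 4 weeks. *Sox9*, the chondrocyte factor that support cells share, was at -0.16 (adjusted p = 0.0266) at 4 weeks and 0.20 (adjusted p = 0.0193) at 8 weeks. With the background fitted on all spots no cartilage marker passed at 4 weeks, and with median centring none passed at 8 weeks, where *Sox9* was at 0.04 (adjusted p = 0.62).

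*Fabp7* was lower in DEP tissue at 4 weeks on every array. The log2 ratios were -0.28, -0.50, -0.49 and -0.48, so replicates 2 to 4 were nearly alike and replicate 1 was nearest to 0. The mean of -0.44 ± 0.10 (SD, n = 4) is a 1.36-fold lower level (adjusted p = 0.00132). At 8 weeks the arrays gave -0.10, 0.06 and 0.17, with a mean of 0.04 ± 0.13 (SD, n = 3; 95% interval -0.12 to 0.21; adjusted p = 0.668). No array of 8 weeks reached the 4-week range, and the difference of 0.48 between the times passed the test (standard error 0.09, adjusted p = 0.0073). With median centring the 8-week mean was -0.25 (adjusted p = 0.0199), the opposite sign.

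The levels behind these ratios moved more between the times than between DEP and control. *Fabp7* was at 10.47 to 10.62 in control and 9.98 to 10.19 in DEP tissue of 4 weeks, and at 11.30 to 11.59 in control and 11.32 to 11.76 in DEP tissue of 8 weeks. Both 8-week groups overlapped with each other and lay above both 4-week groups. In control tissue the rise was 0.89 (standard error 0.08, adjusted p = 0.000356), which is 1.85-fold.

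*Gfap* was measured by 3 probes, and its 2 tested probes had the same sign on every array but replicate 1 of 4 weeks. The brighter probe (A_52_P52303) gave 0.80, 0.86 and 0.67 on replicates 2 to 4 of 4 weeks but -1.06 on replicate 1. On that array the control spot had a raw median signal of 508.5, against 100 to 104 on the other 3 arrays, while the DEP spot was at 194 against 160 to 209.5, and the software had not marked the spot. The 4-week mean of this probe was 0.32 ± 0.92 (SD, n = 4; adjusted p = 0.427), and without replicate 1 it was 0.78 (adjusted p = 0.00182). Of the 3 arrays left, the control spot was well above background on replicate 4 only, so the size of this value is uncertain. The second probe (A_55_P2157250) gave 0.93, 0.80, 1.02 and 0.71, a mean of 0.86 ± 0.14 (SD, n = 4; adjusted p = 9.27e-05). Control tissue was not well above background for it on any 4-week array. Set against a floor for control tissue, the DEP level was 1.54-fold higher. Here and below the floor is the lowest signal well above background or the dim probe's own, whichever is higher. It is no strict limit, since control spots of the brighter probe at levels of 6.80 and 6.73 (replicates 2 and 3) also fell short of detection.

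At 8 weeks both *Gfap* probes were below 0 on all 3 arrays. The brighter probe gave -0.77, -0.90 and -0.43, a mean of -0.70 ± 0.24 (SD, n = 3; adjusted p = 0.153 with the spread of replicate 1 of 4 weeks in the fit, and 0.00199 without that array). With the processed signals it was -2.88 (adjusted p = 0.0136). DEP tissue was not well above background for this probe on any 8-week array. Set against the floor, here the probe's own DEP level, the control level was 1.62-fold higher. That value is the fitted mean itself, which did not pass the test with all arrays, and is no lower limit. The second probe gave -0.20, -0.26 and -0.47, a mean of -0.31 ± 0.14 (SD, n = 3; adjusted p = 0.0189). Between the times the second probe differed by -1.17 (standard error 0.10, adjusted p = 0.000249), with no overlap of the arrays. For the brighter probe that difference was -1.02 (adjusted p = 0.131) and -1.47 without replicate 1 (adjusted p = 0.000717). The remaining probe (A_55_P2157245) was not well above background except in the control channel of 1 array, and was not tested.

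Markers of other cells are given beside *Gfap*. Of the 11 markers of mature olfactory sensory neurons, 8 were higher and none lower at 4 weeks (median 0.44) and 9 lower and none higher at 8 weeks (median -0.43). Their summed level in DEP tissue was 152474 to 167009 at 4 weeks and 99950 to 104906 at 8 weeks, against 84817 to 99749 and 138915 to 155665 in control tissue. Of 8 tested markers of central glia and neurons, 5 were higher and 1 lower at 4 weeks, and 2 were higher and 4 lower at 8 weeks. *Aqp4*, a water channel of astrocytes that nasal epithelium also makes, was at 0.94 (adjusted p = 8.63e-06) at 4 weeks, and *Mog*, a myelin protein of oligodendrocytes, at 0.41 (adjusted p = 0.00122), while *Gad1*, the GABA enzyme of interneurons, was at -0.67 (adjusted p = 0.000456). At 8 weeks *Mog* was at 1.11 (adjusted p = 1.35e-05) and *Aqp4* at 0.20 (adjusted p = 0.0195, and -0.13, adjusted p = 0.206, with median centring), the opposite sign to *Gfap*. The *Aqp4* call was also lost with the background fitted on all spots (0.19, adjusted p = 0.0844) and with the processed signals (0.12, adjusted p = 0.245). *Gad1* was at -1.03 (adjusted p = 9.08e-05) and *Olig1*, a factor of oligodendrocytes, at -0.72 (adjusted p = 0.000215) at 8 weeks. *Opalin*, *Gria2* and *Slc17a7*, markers of oligodendrocytes and central neurons, were too dim to be tested. The part of these cells in the *Gfap* values was not tested.

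**Figure D2:**
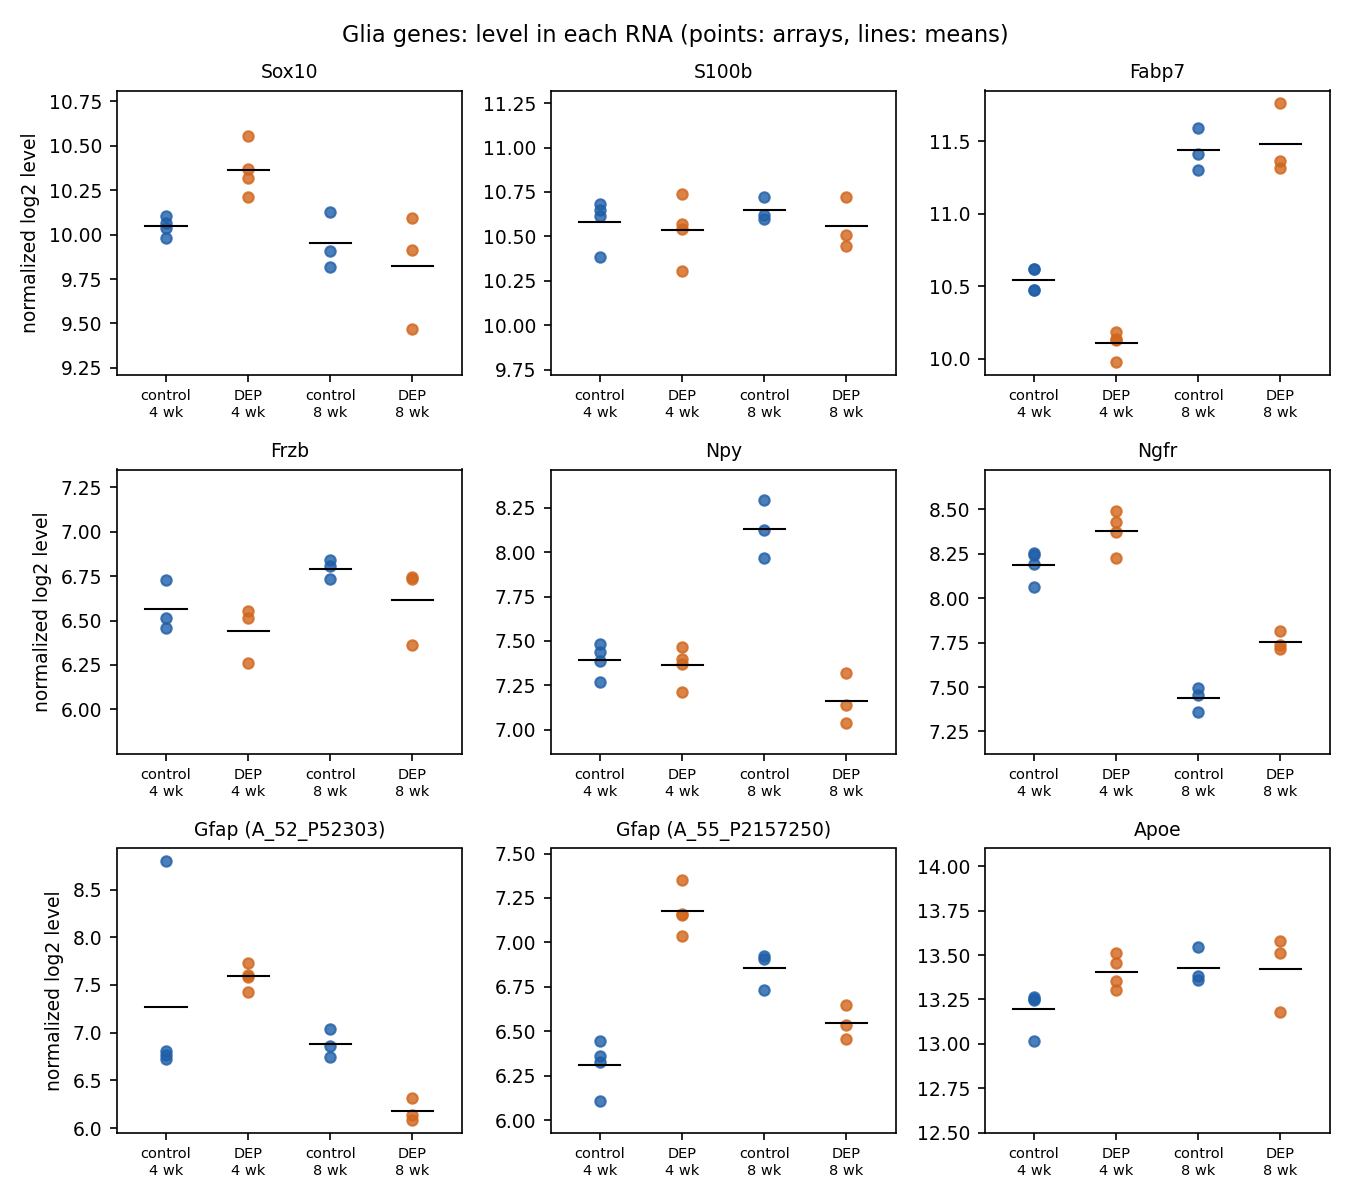
Normalized log2 level (y axis) of each tested glia gene probe in control (blue) and DEP (orange) RNA at 4 and 8 weeks, 1 point per array and a line at each mean. *Fabp7* lies higher and *Ngfr* lower in both RNAs at 8 weeks, and *Npy* is high in control tissue of 8 weeks alone.

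Of the secreted factors, *Frzb* lay near background, and its control spot was well above background on 1 of the 3 arrays of 4 weeks that were used. The log2 ratios were -0.20, -0.00 and -0.17 on replicates 1, 3 and 4 of 4 weeks, and -0.37, -0.10 and -0.06 at 8 weeks. Its spot on replicate 2 of 4 weeks was marked as not uniform and left out. The means of -0.12 ± 0.11 (SD, n = 3; 95% interval -0.31 to 0.06; adjusted p = 0.258) and -0.18 ± 0.17 (SD, n = 3; 95% interval -0.36 to 0.01; adjusted p = 0.128) did not pass the test. With the processed signals, which carry no offset, the 8-week value was -0.64 (adjusted p = 0.0339).

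*Npy* was lower in DEP tissue at 8 weeks on every array. The log2 ratios were -0.81, -1.16 and -0.93 at 8 weeks, and 0.08, -0.07, -0.06 and -0.08 at 4 weeks. The 2 times did not overlap. The 8-week mean of -0.96 ± 0.18 (SD, n = 3) is a 1.95-fold lower level (adjusted p = 5.84e-05), lower on 3 of 3 arrays and lower than the value of 99% of all genes tested. Its size depended on the processing, and over the 19 alternatives tried it lay between -1.57 and -0.87. The 4-week mean was -0.03 ± 0.08 (SD, n = 4; 95% interval -0.18 to 0.12; adjusted p = 0.725). The difference between the times was -0.93 (standard error 0.10, adjusted p = 0.000503). It passed in each of the 16 alternatives tried, with an adjusted p of 0.000143 to 0.0114.

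This difference lay mainly in the control channel. *Npy* was at 7.27 to 7.48 in control tissue of 4 weeks and 7.97 to 8.29 in control tissue of 8 weeks, and in DEP tissue it was at 7.21 to 7.47 and 7.04 to 7.32. The 8-week control group alone stood apart, and the other 3 groups overlapped with their neighbours in the order of levels. The rise in control tissue was 0.74 (standard error 0.09, adjusted p = 0.00112). *Th*, the dopamine and noradrenaline enzyme that sympathetic neurons and some bulb neurons make, rose by 1.36 in control tissue (adjusted p = 0.000129) but was at 0.09 between DEP and control at 8 weeks (adjusted p = 0.338). Of 10 peripheral neuron markers tested in control tissue, *Th* was the 1 that was higher at 8 weeks, and 6 were lower. *Dbh*, the other sympathetic marker, was too dim to be tested. The olfactory neuron markers, given above, also rose in control tissue between the times, 9 of 11 with none lower (median 0.46). Whether these cells had a part in the *Npy* values was not tested. Of 4 tested receptors and processing enzymes of Npy, *Npy1r* was lower at 4 weeks (-0.22, adjusted p = 0.0314, and -0.21, adjusted p = 0.0548, with median centring), and *Dpp4*, a peptidase that trims Npy, was higher at 8 weeks (0.26, adjusted p = 0.0252, and 0.15, adjusted p = 0.143, with median centring).

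*Apoe* was measured on 10 repeated spots per array. Means over the spots were 0.03, 0.21, 0.33 and 0.26 at 4 weeks and 0.20, -0.03 and -0.18 at 8 weeks, with SDs over the spots of 0.05 to 0.14. The arrays therefore differed from each other by more than the spots of most arrays did. All 4 arrays of 4 weeks were above 0, and the mean of 0.21 ± 0.13 (SD, n = 4) had an adjusted p of 0.0591. It passed when replicate 1 of 4 weeks (0.0373), replicate 1 of 8 weeks (0.038) or replicate 3 of 8 weeks (0.0486) was left out. The 8-week mean was -0.01 ± 0.19 (SD, n = 3; 95% interval -0.21 to 0.19; adjusted p = 0.967). In level, control tissue of 4 weeks was lowest (13.02 to 13.27), below DEP tissue of 4 weeks (13.30 to 13.51) and control tissue of 8 weeks (13.36 to 13.54) but overlapping with DEP tissue of 8 weeks (13.18 to 13.58).

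Macrophages carry much *Apoe*, and of 10 macrophage markers tested 3 were lower and none higher at 4 weeks. Among them were *Mrc1*, a mannose receptor (-0.32, adjusted p = 0.00185), and *C1qa*, a complement subunit (-0.41, adjusted p = 0.00312). At 8 weeks 1 was higher, *C1qb* (0.63, adjusted p = 0.000306), and 1 lower, *C1qa* (-0.45, adjusted p = 0.00384), so subunits of the same complex moved apart. With median centring 5 were lower at 8 weeks. Their summed level was 3178 to 3772 in DEP and 3514 to 3802 in control tissue at 4 weeks. Of 12 apolipoprotein receptors and lipid export genes, 1 was higher and 2 lower at 4 weeks, and 2 were higher and 5 lower at 8 weeks (none and 6 with median centring). *Apoc1*, the neighbour of *Apoe* in its gene cluster, was lower at both times (-0.24, adjusted p = 0.0334, and -0.91, adjusted p = 0.000142). *Abcg1*, a cholesterol exporter, was lower at 8 weeks (-0.91, adjusted p = 0.000628), and *Abca1*, another exporter, higher (0.30, adjusted p = 0.0105, and 0.11, adjusted p = 0.317, with median centring).

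*Ngfr* was the glia gene that was higher at both times. On 10 repeated spots per array it gave means of 0.18, 0.18, 0.16 and 0.25 at 4 weeks and of 0.35, 0.28 and 0.32 at 8 weeks. Every array was above 0, and the 8-week arrays all lay above the 4-week arrays. The means were 0.19 ± 0.04 (SD, n = 4; 1.14-fold, adjusted p = 0.00942) and 0.32 ± 0.04 (SD, n = 3; 1.25-fold, adjusted p = 0.00187). The difference of 0.13 between the times did not pass the test (95% interval -0.02 to 0.27; adjusted p = 0.176). A dye effect of this probe that is alike on all arrays cannot be told apart from a DEP effect here. SDs over the spots of an array were 0.06 to 0.17, and the lowest spot of all was at -0.08, on replicate 1 of 4 weeks. At 8 weeks median centring gave 0.17 (adjusted p = 0.0497). The 4-week call was lost with median centring (0.11, adjusted p = 0.138), with the background fitted on all spots (0.16, adjusted p = 0.0603) and with the methods' t-test (adjusted p = 0.121).

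Of 9 tested neurotrophins and partners of Ngfr, 2 were higher and 3 lower at 4 weeks, and 2 were higher and 2 lower at 8 weeks. *Sort1*, the sortilin gene, whose product pairs with Ngfr as a receptor of pro-neurotrophins, was higher at both times (0.28, adjusted p = 0.002, and 0.36, adjusted p = 0.00116). *Rtn4*, which encodes the myelin inhibitor Nogo, was lower at both (-0.58, adjusted p = 0.000177, and -0.68, adjusted p = 0.000136), as was *Ntrk2*, the receptor of BDNF (-0.33, adjusted p = 0.00343, and -0.50, adjusted p = 0.000902). With median centring *Sort1* was at 0.05 (adjusted p = 0.554) at 8 weeks, and none of the list was higher and 2 were lower. None of the 9 passed the test of the difference between the times, and for these probes too a dye effect cannot be told apart.

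**Figure D3:**
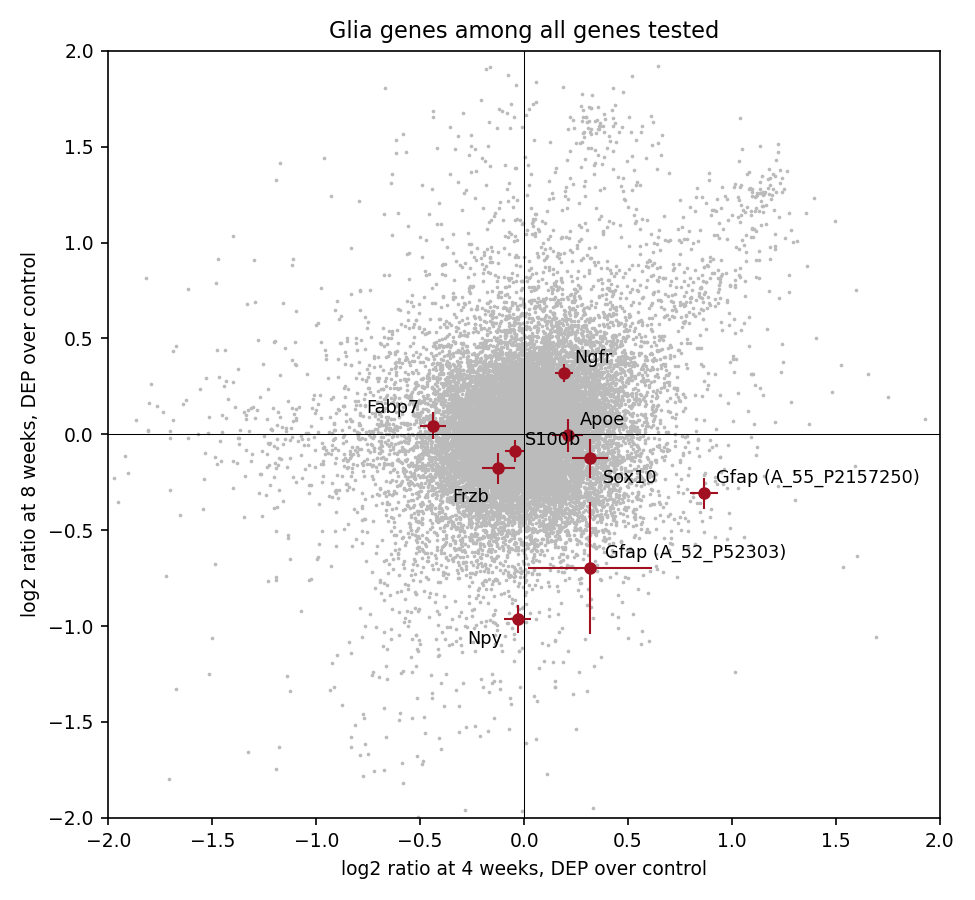
Mean log2 ratio of DEP over control at 4 weeks (x axis) and 8 weeks (y axis) for the tested glia gene probes (red, with standard errors) and for all genes tested (grey), with 70 genes beyond the axes. *Ngfr* is above 0 at both times, *Npy* lies low at 8 weeks only, and both *Gfap* probes lie at the lower right.

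Control tissue differed between the times as well, and these values are the base that each ratio is taken against. *Fabp7* and *Npy* were higher and *Ngfr* lower at 8 weeks, 3 of 8 glia genes beside 33.5% of all genes tested (21.9% higher and 11.6% lower). Of all calls 65.4% were higher, 76.4% with median centring and 54.4% with probes above background in both channels only. Control arrays of the 2 times did not overlap for these 3 genes, *Frzb* and *Apoe*, beside 44.5% of all genes, and *Ngfr* was among the 17.1% lower on every 8-week array. These 3 calls were kept in each of the 17 alternatives tried. *Ngfr* was at 8.06 to 8.25 in control and 8.22 to 8.49 in DEP tissue of 4 weeks, and at 7.36 to 7.50 in control and 7.71 to 7.82 in DEP tissue of 8 weeks. The fall in control tissue was -0.75 (standard error 0.07, adjusted p = 0.000275), which is 1.68-fold and larger than either DEP difference of the gene. The second *Gfap* probe rose by 0.54 (adjusted p = 0.00481), though its control spots were not well above background at 4 weeks. *Sox10*, *S100b*, *Frzb* and *Apoe* were at -0.10, 0.06, 0.23 and 0.23 and did not pass, nor did the brighter *Gfap* probe at -0.39. That last value takes in the control level of 8.80 on replicate 1 of 4 weeks, against 6.73 to 6.80 on replicates 2 to 4. Among the alternatives it reached 0.11.

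Markers of peripheral neurons fell much further than *Ngfr*. Of 10 tested, 6 were lower in control tissue of 8 weeks and 1, *Th*, was higher, with a median of -1.51. *Nefl*, a neurofilament subunit, was at -2.87 (adjusted p = 1.05e-06) and *Nefh*, another, at -2.64 (adjusted p = 2.17e-06), and each was well above background on 2 of 3 control arrays of 8 weeks. *Calca*, the gene of the sensory peptide CGRP, and *Nefm* were detected in both RNAs on every 4-week array and in neither RNA on any 8-week array, and their fitted values enter that median. The summed level of the list was 3469 to 3654 in control and 3022 to 3260 in DEP tissue at 4 weeks, and 1790 to 1840 and 1768 to 1874 at 8 weeks. DEP and control levels overlapped at 8 weeks and did not at 4 weeks. Myelin genes of Schwann cells fell in control tissue in part, *Fa2h*, a lipid hydroxylase, at -2.02 (adjusted p = 6.58e-06) and *Ncmap*, a protein of myelin edges, at -0.84 (adjusted p = 3.66e-05), among 4 lower and 3 higher of 16 tested. The part of nerve or ganglion tissue in the *Ngfr* values was not tested.

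**Figure D4:**
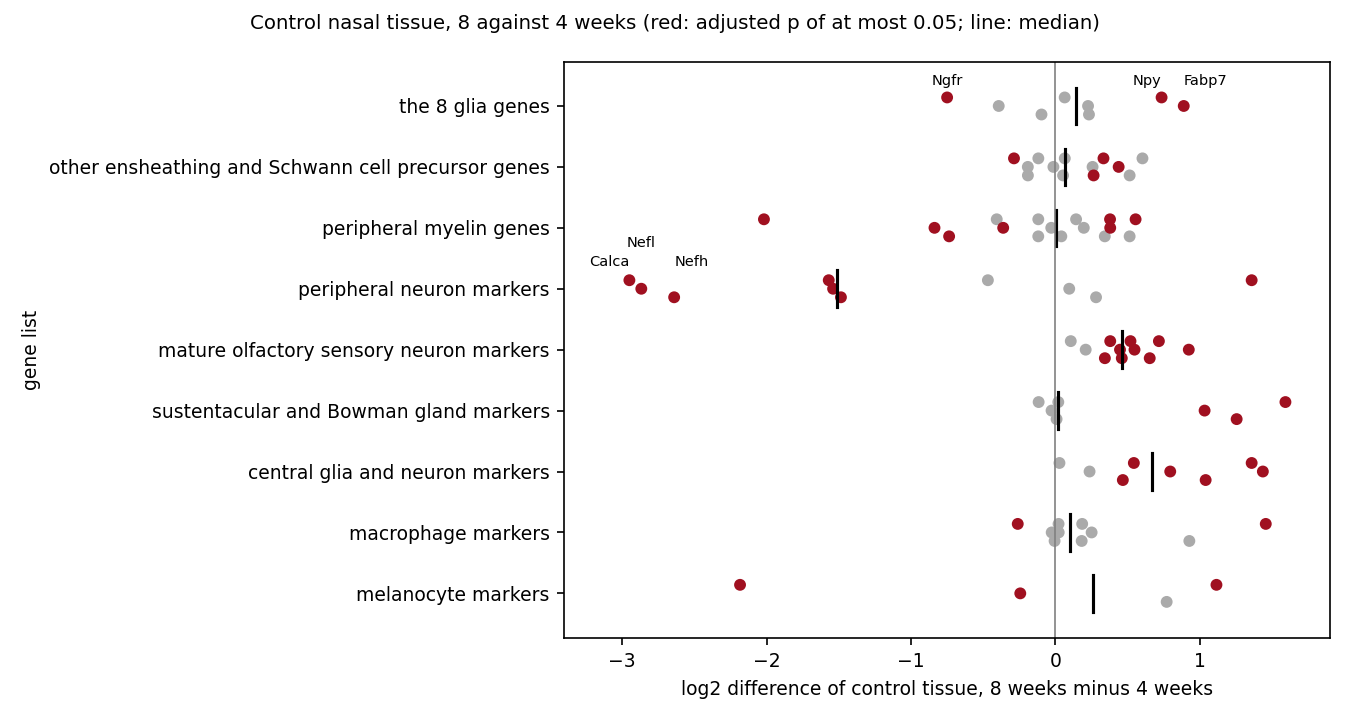
Log2 difference of control tissue between 8 and 4 weeks (x axis) for the 8 glia genes and for lists of genes (y axis), 1 point per gene, red where the adjusted p was at most 0.05, with a line at each median. The median of the peripheral neuron markers is -1.51, and *Ngfr* is the lowest of the glia genes at -0.75.

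Other genes of these glia did not move in 1 direction. Of 18 further genes of ensheathing cells and Schwann cell precursors, 13 were tested, and *Erbb3*, *Cdh19*, *Omg*, *Prss56* and *Scn7a* were too dim. At 4 weeks 2 were higher and 4 lower (median -0.05, against 0.00 for all genes), and at 8 weeks 6 were higher and 2 lower (median -0.08, against 0.01). With median centring the 8-week counts turned to 2 higher and 4 lower. *Mia*, a secreted protein that melanoma and cartilage cells make as well, was lower at both times (-0.38, adjusted p = 0.00168, and -0.69, adjusted p = 0.00015). Most calls of the list at 8 weeks went the other way, and its values then ran from -0.74 to 1.30. *Ncam1*, an adhesion molecule shared with neurons, was higher at 4 weeks (0.59, adjusted p = 0.000146), and *Chl1*, another, lower (-0.42, adjusted p = 0.00133).

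Of 18 peripheral myelin genes, 16 were tested. At 4 weeks 5 were higher and 2 lower (median 0.09), and at 8 weeks 7 were higher and none lower (median 0.02), though with median centring 4 were higher and 6 lower at 8 weeks. *Fa2h* was lower at 4 weeks (-0.59, adjusted p = 0.000332) and higher at 8 weeks (2.56, adjusted p = 8.77e-07). It is also a gene of skin and other epithelia. *Mbp*, the myelin basic protein gene, was higher at 4 weeks (0.51, adjusted p = 0.000297) and at 0.04 at 8 weeks (adjusted p = 0.651). Of 8 tested SoxE and neural crest factors beside *Sox10*, none was higher and 3 were lower at 4 weeks, while 4 were higher and 1 lower at 8 weeks (2 and 2 with median centring). *Zeb2*, a factor that Schwann cells need, was lower at 4 weeks (-0.27, adjusted p = 0.00826), and *Pax3*, a neural crest factor, was higher at 8 weeks (0.94, adjusted p = 1e-04).

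Of 4 tested genes of neuregulin and its receptors, which drive Schwann cell growth, *Nrg1* was higher at 4 weeks (0.23, adjusted p = 0.0246, and 0.16, adjusted p = 0.101, with median centring) and *Egfr* at 8 weeks (0.60, adjusted p = 0.00121). *Erbb4* and *Nrg3* were, like *Erbb3*, too dim to be tested. Of 13 tested secreted Wnt inhibitors and Wnt receptors beside *Frzb*, 1 was higher and 6 lower at 4 weeks, and 4 were higher and 2 lower at 8 weeks (none and 3 with median centring). *Wif1*, a Wnt inhibitor, was lower at 4 weeks (-0.75, adjusted p = 4.38e-05) and higher at 8 weeks (0.32, adjusted p = 0.0045), where it was at 0.00 with median centring. *Sfrp2*, a close relative of *Frzb*, was lower at 4 weeks (-0.36, adjusted p = 0.00622). Of 7 tested support cell and Bowman gland markers, 6 were higher and 1 lower at 4 weeks, and 3 were higher and 3 lower at 8 weeks.

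Across the 7 arrays the glia genes did not follow 1 pattern among themselves. *Sox10* and *Npy* had a Pearson correlation of 0.864 over the log2 ratios, *Fabp7* and *Npy* of -0.899 and *Sox10* and *S100b* of -0.0197, where arrays of a time share a slide. The gene symbols with the highest correlation were *Zcchc18* (0.990) and *Mink1* (0.990) for *Sox10*, *Fcmr* (0.998) and *Cyb5r1* (0.997) for *Npy*, and *Acsl4* (0.998) and *Ppih* (0.997) for *Fabp7*. They were *Cenpw* (0.989) and *Nudt17* (0.987) for *Ngfr*, and *Elob* (0.993) and *Ist1* (0.993) for *Apoe*. For the brighter *Gfap* probe, with its -1.06 on replicate 1 of 4 weeks included, they were *Gstm4* (0.994) and *Mrps18a* (0.992). For *S100b* they were *Mettl15* (0.976) and *Tspan8* (0.973), and for *Frzb*, over 6 arrays, *Cd209d* (0.980) and *Olfr1102* (0.979). These are descriptions over 15698 symbols tested.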

How the data were processed

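Nasal RNA of DEP and control mice was measured on 7 Agilent 2-colour arrays (4 of 4 weeks, 3 of 8 weeks). The authors deposited 1 output of the scanner software (Feature Extraction 10.10.1.1) per array, with median spot and background intensity values that are neither background-subtracted nor normalized, and with processed intensity values, used as an alternative. The annotation and normalization that the study ran afterwards are not part of these files.

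With limma 3.58.1 in R 4.3.3, median intensities were corrected by normexp (offset 50), fitted without spots marked as background outliers, and normalized within arrays by loess. Values of control spots and of non-uniform spots were dropped, and repeats of a probe were averaged. Of 39429 probes, 28330 were named through a RefSeq transcript (GRCm38.p6). A probe was tested when at least 3 of 7 arrays showed it well above background in 1 or both channels (25156 probes), and the brightest tested probe stood for a gene. Linear models (lmFit, eBayes) with a mean for each exposure time tested each time against 0 and the difference between the times. Control tissue was compared between the times on Cy3 levels after scaling the arrays to each other (Aquantile), which also gave the normalized log2 levels. A summed level adds these on the linear scale over the tested genes of a list. P-values were adjusted over all probes tested. The linear models of the log2 ratios and the normexp fit were tested on simulated data, and the other steps were not.

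The glia genes and all lists were chosen with earlier results of these data known. All glia genes are named, and from each list at most 2 called genes per direction and time with the lowest adjusted p, together with markers of other cells that express a glia gene. Some genes that meet this rule are not reported here. Replicate numbers did not pair arrays of different times: same-numbered arrays correlated at -0.00775, -0.00622 and 0.0147 after removal of the group means.

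Alternatives varied the background fit, the starting signals, the normalization, the filter on dim probes, non-uniform spots, the probe of a gene, the test and its threshold, the replicate number as a block, and left out each array in turn.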

Additional observations from a re-analysis of the deposited data

Results flagged for a closer look

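On the 4-week arrays, 24 sets of values (log2 ratio, DEP level and control level of 8 probes) were searched for 1 array apart from the other 3, by how large its distance to the next array was relative to the full range. Chance gives about 1 in 20 for a single set, but a log2 ratio comes from the DEP and control levels, so the sets are not independent. Among the 24 sets, 5 values stood apart in this way, and that number cannot be set against the chance rate. Replicate 1 stood apart for *Fabp7* (log2 ratio -0.28), for *Npy* (0.0823) and for the brighter *Gfap* probe, in its log2 ratio (-1.06) and its control level (8.80). The *Gfap* values come from the same control spot. Replicate 3 stood apart for the control level of *Apoe* (13.02). The cause was not tested.

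The DEP effect differed between 8 and 4 weeks by the test of the difference for *Sox10* (-0.44), *Fabp7* (0.48), *Npy* (-0.93) and the second *Gfap* probe (-1.17). The slide cannot be told apart from the time of exposure here.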

How the results depend on the processing

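Over all alternatives, 497 values of single glia genes kept their direction and side of the threshold, 25 lost and 23 gained a call, and 15 changed sign. The study's thresholds were applied to the main processing only. The calls at 4 weeks went from 3 to 1 with the background fitted on all spots and to 0 at the study's thresholds, where limma gave 4 genes an unadjusted p under 0.05. The calls at 8 weeks went from 2 to 4 with the processed signals and 5 with median centring, beside 39.1% and 45.5% of all genes. They were 0 with Student's test paired within arrays (3 genes at an unadjusted p under 0.05; adjusted p = 0.085 for *Npy* and 0.0658 for *Ngfr*) and 0 at the study's thresholds (2 genes, limma). The calls of the difference went from 3 to 1 with the replicate number as a block, as *Sox10* (adjusted p = 0.0543) and *Fabp7* (adjusted p = 0.0713) were lost. The block changed no call in control tissue, and the numbers do not pair the arrays. Leaving out 1 array gave 2 to 4 calls at 4 weeks, 2 to 3 at 8 weeks, 2 to 3 for the difference and 3 to 4 in control tissue. Of all genes, 27.5% to 38.3% were then called at 4 weeks and 21.6% to 41.3% at 8 weeks. Over all genes, the 7878 calls at 4 weeks became 5042 with the background fitted on all spots, 4389 with the methods' t-test, 4679 with the paired test and 269 at the study's thresholds. The 7708 calls at 8 weeks became 4842, 393 and 608 with the last 3 of these, and 4464 without replicate 2 of 8 weeks. The 6388 calls of the difference became 3217 with the block and 3876 without replicate 2 of 8 weeks.

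Signs changed with the processed signals for *S100b* (0.0106) and *Npy* (0.132) at 4 weeks. With median centring they changed for *Fabp7* at 8 weeks (-0.255) and *Sox10* in control tissue (0.00994). With non-uniform spots kept, *Frzb* was at 0.923 for the difference and -0.778 in control tissue, where its spot on replicate 2 of 4 weeks has a raw control signal of 1766.5. With the mean over its probes *Gfap* was at 0.0753 in control tissue. Leaving out 1 array gave ranges across 0 for *Fabp7* (-0.0164 to 0.115) and *Apoe* (-0.109 to 0.0824) at 8 weeks, for *S100b* (-0.0873 to 0.000715) and *Frzb* (-0.114 to 0.0428) in the difference, and for *S100b* (-0.00138 to 0.0975) and *Gfap* (-0.566 to 0.111) in control tissue. *Frzb* passed in control tissue without replicate 4 of 4 weeks (0.308, adjusted p = 0.0251), and *Sox10* at 8 weeks without replicate 1 of 8 weeks (-0.282, adjusted p = 0.043). The causes were not tested.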
